A study of Hydra vulgaris with 12 samples.

Results

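Late head regeneration in Hydra was described by comparing tissue taken 48 h after bisection with tissue taken 12 h after it, over every transcript that reached 1 RPKM, a measure of reads corrected for the length of the transcript and the size of the library, in at least 2 of 12 libraries. This rule was met by 14283 of the 17353 transcripts in the deposited table and left out 3070. The second-highest value of a transcript, which decides the rule, was 1.0011 RPKM just inside it and 0.99978 RPKM just outside it. All animals were Hydra magnipapillata of strain 105, starved for 1 day, each with a young bud, and 50 to 100 of them were pooled for each library. They were cut between the uppermost trunk region and the one beneath it, and the 2 regions next to the cut were collected. The 48 h group and the 12 h group have 2 libraries each, as do the 4 earlier groups of 0, 2, 4 and 6 h, which serve here for the common estimate of the spread and for the earlier course of the same transcripts. No uncut animals kept for as long were analysed here, so regeneration cannot be told apart from the time the animals were kept.

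Hydra is a freshwater cnidarian polyp whose body is a tube of epithelial cells with a head, made of the mouth region and a ring of tentacles, at one end and a foot at the other. After loss of the head the upper trunk closes its wound, sets up a new head organizer at its tip and then builds mouth and tentacles. The organizer acts through Wnt ligands, secreted proteins that stabilize beta-catenin in receiving cells and so switch on target genes.

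Names limit what can be said of function. The table paired 1 identifier with a gene name, Wnt3, and 1 identifier matched the list of RefSeq genes of another Hydra assembly. Of 9 lists of pathway and cell type genes, 1 had a member in the table, so no list is described and the labelled tissue could not be checked against other markers. The other transcripts are given by their RefSeq identifiers, of which XM_ marks a predicted mRNA and XR_ a predicted non-coding RNA, with no statement on what they encode. Each library is a mix of all cells in the pieces collected, so fewer cells of a type and less RNA per cell cannot be told apart.

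The 2 libraries of a time agreed less well at 48 h than at any other time. Log2 values of paired libraries differed with an SD of 1.02 at 48 h and 0.756 at 12 h, against 0.425 to 0.732 at the earlier times, and their r across transcripts was 0.910 at 48 h and 0.946 at 12 h. Both 48 h libraries correlated with the 12 h libraries less than the 12 h libraries did with each other, with r of 0.916 and 0.912 for 48 h replicate 1 and 0.882 and 0.873 for 48 h replicate 2. The 2 libraries of 48 h were no closer to each other than 48 h replicate 1 was to the 12 h libraries. The most transcripts at exactly 0 RPKM were in 48 h replicate 2, where 14492 of 17353 were above 0, against 15950 in 48 h replicate 1 and 16029 and 15668 at 12 h. Sequencing depth is unknown for all libraries, since fractions of reads are present at low values and no read totals are given.

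At 48 h, 350 transcripts rose and 667 fell relative to 12 h, which is 2.45% and 4.67% of those tested and 7.12% together. A rise or fall here means a limma Benjamini-Hochberg adjusted p below 0.05 and a log2 fold change of at least 1 in size, on the log2(RPKM + 1) scale, which understates the change of weakly expressed transcripts. The median size of a rise was 1.54 on the log2 scale, with an interquartile range of 1.25 to 1.98, and that of a fall was 1.60, with an interquartile range of 1.24 to 2.21. Over all transcripts tested the median size of a difference was 0.40. Falls outnumbered rises among large changes: 213 falls and 85 rises reached 2 on the log2 scale, 78 and 30 reached 3, and 27 and 5 reached 5. The median difference over all transcripts was −0.06 (log2), and rises made up 34.4% of calls as deposited, 39.7% after median-ratio scaling and 43.9% after quantile normalization. The counts rest on the spread pooled over all 6 times. A limma fit of only the 4 libraries compared called 0 transcripts, with 1958 at an unadjusted p below 0.05. Weights per library left 54 rises and 175 falls. These weights came to 0.318 for both 48 h libraries, 0.637 for both 12 h libraries and 0.851 to 1.95 for the others. With 2 libraries per time both receive the same weight, so the weights compare times and not replicates. Without 12 h replicate 2 there were 221 rises and 415 falls, and without 48 h replicate 1 there were 750 and 1590.

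**Figure D1:**
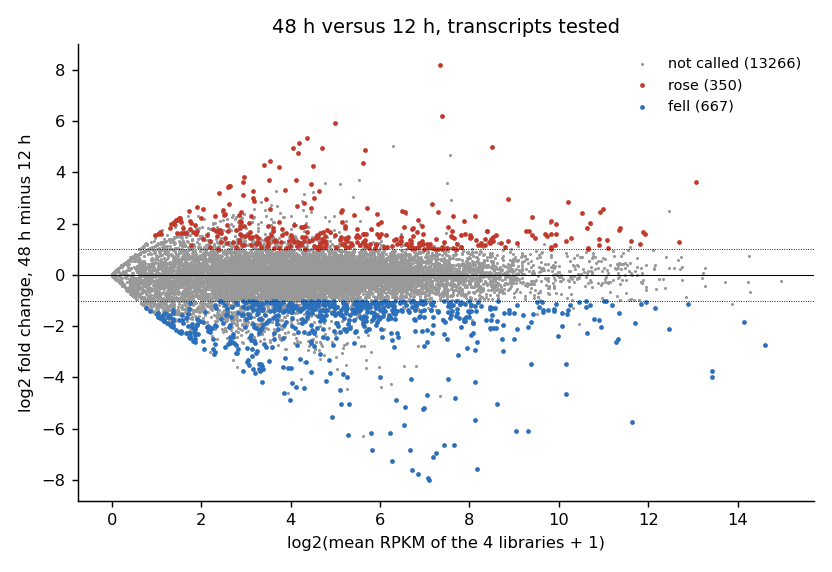
Each point is 1 of the transcripts tested, with its mean level over the 4 libraries of 48 h and 12 h on the x axis, as log2(RPKM + 1), and its log2 fold change, 48 h minus 12 h, on the y axis. The 350 rises are red, the 667 falls blue, and dotted lines mark the minimum size of 1; falls reach −8.01 and rises 8.20, and the slanted edge at the left is the floor that values near 0 RPKM set.

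How far the libraries of the 2 times lay apart was also read without any model. For all 350 rises both 48 h libraries were above both 12 h libraries, and for all 667 falls both were below. That alone says little, since the libraries of the 2 times did not overlap for 45.2% of all transcripts tested, with 48 h above in 19.7% and below in 25.5%. A stricter gap, with the nearest libraries of the 2 times at least 1 apart on the log2 scale, was present in 1.63% of transcripts with 48 h above and in 3.37% with 48 h below. It was met by 199 of the 350 rises and 411 of the 667 falls, and by 105 transcripts that were not called. A call already asks for a mean difference of at least 1 in the same 4 libraries. A larger share among the calls therefore follows in part from the calls and gives them no further support. Among the called transcripts the replicates differed by a median of 0.45 on the log2 scale at 48 h and 0.32 at 12 h for rises, and by 0.46 and 0.32 for falls, close to the medians of 0.44 and 0.32 over all transcripts.

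The calls were spread over all levels of expression. When the transcripts were divided into 4 equal bins by their mean log2 level over the 12 libraries, the share that rose was 2.66%, 1.90%, 1.57% and 3.67% from the lowest bin to the highest, and the share that fell was 3.00%, 3.53%, 4.73% and 7.42%. Falls were thus a larger share at each higher bin, while rises were fewest in the middle bins. The median standard error (SE) of the log2 fold change was 0.49 in the lowest bin and 0.20 in the highest, so a change had to be larger to be called among weakly expressed transcripts. Values near the floor were part of the calls: 48 rises had both 12 h libraries below 1 RPKM, and 90 falls had both 48 h libraries below 1 RPKM. Replicates agree almost by construction there, so the SE of such transcripts can understate the spread at the time when they are expressed.

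A few transcripts were listed at almost nothing at 1 of the times and at a clear level at the other. Both 48 h libraries held at least 10 RPKM and both 12 h libraries less than 1 RPKM in 12 transcripts, or 0.084% of those tested, and the reverse was found in 20, or 0.14%. Of these, 12 and 18 passed the test. They were picked on the 4 libraries that the test compares, and the pick alone sets a log2 fold change above 1. The numbers that passed therefore give no further support. The 12 that were high at 48 h had medians of 32.0 and 28.8 RPKM in the 48 h libraries. Their medians in the 12 h libraries were 7.95e-07 and 4.3e-08 RPKM. Values this small are fractions of reads, and no source used here says how reads shared by related transcripts were assigned. Whether such reads went to another transcript at 1 of the times was not tested. The same limit holds for the values below 0.001 RPKM given further on. A mean of at least 10 RPKM was reached by 7 of the 12 at 0 h and by 2 of them at 6 h. The 20 that were low at 48 h had medians of below 0.001 and 0.0871 RPKM in the 48 h libraries, against 52.1 and 44.7 RPKM in the 12 h libraries. Of these 20, 9 had a mean of at least 10 RPKM at 0 h and 13 at 6 h.

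The largest rise was that of XM_004206625.1. It had 189 and 456 RPKM in the 48 h libraries, against listed values of 0 and below 0.001 RPKM in the 12 h libraries. Both 48 h libraries were thus high and both 12 h libraries at the floor, and the log2 fold change was 8.20 (SE 0.60, limma adjusted p = 2.37e-04). The transcript was present in all libraries before 12 h, with means over 0, 2, 4 and 6 h of 132 ± 107, 205 ± 86.1, 40.9 ± 1.91 and 77.0 ± 23.6 RPKM (SD, n = 2 each), so 12 h was the only time at which both libraries were near 0. XM_004211484.1 came next, with 189 and 465 RPKM in the 48 h libraries against 11.0 and 0.373 RPKM in the 12 h libraries (6.20 on the log2 scale with an SE of 1.24 and an adjusted p of 0.0160). Its 48 h values lie within a few percent of those of XM_004206625.1 in both libraries, and no source used here says whether these models share reads. XM_004211484.1 was no longer called when 12 h replicate 2 was left out (adjusted p = 0.0884), or 48 h replicate 2 (0.0678), when no filter was used (0.0506) or with weights per library (0.208), with 0.00541 to 0.232 as the range in 22 alternatives.

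Among rises, the widest gaps between the libraries of the 2 times were those of XM_004206625.1, at 7.57 on the log2 scale, and XM_004210848.1, at 5.67. XM_004210848.1 had 49.8 and 73.9 RPKM in the 48 h libraries and below 0.001 RPKM in both 12 h libraries (5.95 on the log2 scale with an SE of 1.26 and an adjusted p of 0.0200). Its course before 12 h was a descent, with means over 0, 2, 4 and 6 h of 378 ± 1.25, 322 ± 17.8, 25.2 ± 30.7 and 8.10 ± 11.4 RPKM (SD, n = 2 each). Against 0 h its log2 fold change was −2.62 at 48 h (adjusted p = 0.136) and −8.57 at 12 h (0.00187), and these comparisons share the 0 h libraries with each other and the 48 h or 12 h libraries with the late step. The libraries of 4 h and 6 h differed widely, at 3.50 and 47.0 RPKM and at 0.0271 and 16.2 RPKM. Leaving out 12 h replicate 1 ended its late call, at an adjusted p of 0.0746, as did leaving out 12 h replicate 2 (0.0837) or 48 h replicate 2 (0.0713), using no filter (0.0581) and using weights per library (0.337). Over all settings its adjusted p lay between 0.00843 and 0.337 in the 22 alternatives.

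The largest fall was that of XM_002161607.2. It had 0.00115 and below 0.001 RPKM in the 48 h libraries, against 353 and 186 RPKM in the 12 h libraries. All 4 libraries of 4 h and 6 h were also high, at 491, 452, 292 and 372 RPKM, while the 2 h libraries held 52.9 and 44.4 RPKM and the 0 h libraries 15.5 and below 0.001 RPKM. The log2 fold change at 48 h was −8.01 (SE 0.99, adjusted p = 0.0020). XM_004209136.1, which had the second-widest gap among falls, was likewise high from 4 to 12 h but was listed below 0.001 RPKM in both 2 h libraries. It was below 0.001 RPKM in both 48 h libraries, against 296 and 163 RPKM in the 12 h libraries (−7.79 on the log2 scale with an SE of 0.66 and an adjusted p of 4.8e-04), while its libraries of 4 h and 6 h lay between 316 and 445 RPKM and none of 0 h or 2 h exceeded 5.12 RPKM. The late calls of both transcripts were lost only in the fit of 4 libraries (adjusted p = 0.107 for both) among 22 alternatives.

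Predicted non-coding RNAs were among the largest falls. Of the 364 deposited, 330 were tested; 16 rose, or 4.85%, and 29 fell, or 8.79%, against 2.39% and 4.57% of the 13952 predicted mRNAs tested. The difference between the classes was not tested. XR_181873.1 was below 0.001 RPKM in both 48 h libraries, against 386 and 151 RPKM in the 12 h libraries (−7.92 on the log2 scale with an SE of 0.41 and an adjusted p of 8.49e-05). None of its 0 h or 2 h libraries reached 0.001 RPKM either, and the 4 libraries of 4 h and 6 h held 196, 197, 252 and 465 RPKM. XR_181863.1 had 6.46 and 0 RPKM in the 48 h libraries, against 801 and 345 RPKM in the 12 h libraries (−7.59 on the log2 scale with an SE of 1.07 and an adjusted p of 0.00357). Its peak came earlier, with 6100 and 6091 RPKM at 6 h, and both 12 h libraries lay below both of these.

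The 2 non-coding RNAs with the largest rises were near 0 at every time but 48 h. XR_181747.1 had 9.17 and 39.7 RPKM in the 48 h libraries, against 0.222 and 0 RPKM in the 12 h libraries (4.20 on the log2 scale with an SE of 0.59 and an adjusted p of 0.00358). XR_181759.1 had 4.87 and 36.7 RPKM in the 48 h libraries, against 0.317 and 0 RPKM in the 12 h libraries (3.70 on the log2 scale with an SE of 0.74 and an adjusted p of 0.0159). In the 8 libraries before 12 h the highest value of either was 0.661 RPKM. Both therefore passed the minimum of 1 RPKM in 2 libraries only through the 48 h libraries, so they had to be higher at 48 h, and their tests add no support beyond the values. Of the 350 rises, 15 passed it in this way, as did 7 of the 667 falls through the 12 h libraries alone. The 48 h libraries differed several-fold for both, with replicate 2 the higher, and XR_181759.1 was no longer called when 12 h replicate 1 was left out (adjusted p = 0.0516), or 12 h replicate 2 (0.0779), or with weights per library (0.0773), with 6.04e-04 to 0.301 as the range in 21 alternatives; the filter at 5 RPKM left it out.

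Some of the most abundant transcripts moved as well. Of the 20 transcripts with the highest mean at 48 h, 2 had risen, 2 had fallen and 16 were not called; of the 20 highest at 12 h, 7 fell at 48 h and the other 13 were not called, where 2.45% of all transcripts rose and 4.67% fell. Ranking by the level at one of the times compared favours changes in one direction, so nothing is read from these counts, and 13 transcripts were on both lists. XM_002168126.2 was the most abundant transcript in every library of 4, 6 and 12 h. It stood at 5075 and 8526 RPKM in the 48 h libraries, against 44764 and 41946 RPKM in the 12 h libraries (−2.72 on the log2 scale with an SE of 0.34 and an adjusted p of 0.00211). Its mean share of a library's summed RPKM was 0.495% at 48 h and 2.92% at 12 h. At 0 h it had held 3503 and 3942 RPKM. XM_004207626.1 had 6546 and 9243 RPKM in the 48 h libraries, against 31047 and 24956 RPKM in the 12 h libraries (−1.84 on the log2 scale with an SE of 0.25 and an adjusted p of 0.00323); its 0 h libraries held 6949 and 7433 RPKM. Its call was lost after quantile normalization, where the log2 fold change was −1.07 (adjusted p = 0.0515), and with weights per library (0.0712), with 0.00228 to 0.221 as the range in 22 alternatives.

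The most abundant rise was that of XM_002159017.2, with 14695 and 16796 RPKM in the 48 h libraries, against 2203 and 739 RPKM in the 12 h libraries (3.62 on the log2 scale with an SE of 0.43 and an adjusted p of 0.00167). This transcript was among the most abundant of the tissue at 0 h, at 10541 and 9812 RPKM, and its means over 2, 4, 6 and 12 h were 11456, 7636, 5105 and 1471 RPKM. Against 0 h it was not called at 4 h (limma adjusted p = 0.501) or at 6 h (0.119) and had fallen at 12 h (0.00168). XM_004205501.1 had 8922 and 9793 RPKM in the 48 h libraries, against 3790 and 3931 RPKM in the 12 h libraries (1.28 on the log2 scale with an SE of 0.17 and an adjusted p of 0.00308). Its 4 h and 6 h libraries lay between 3346 and 4105 RPKM, a range that also held both 12 h libraries. Its 0 h libraries lay at 7312 and 8881 RPKM. With weights per library its adjusted p was 0.0784, with 0.0021 to 0.192 as the range in 22 alternatives.

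**Figure D2:**
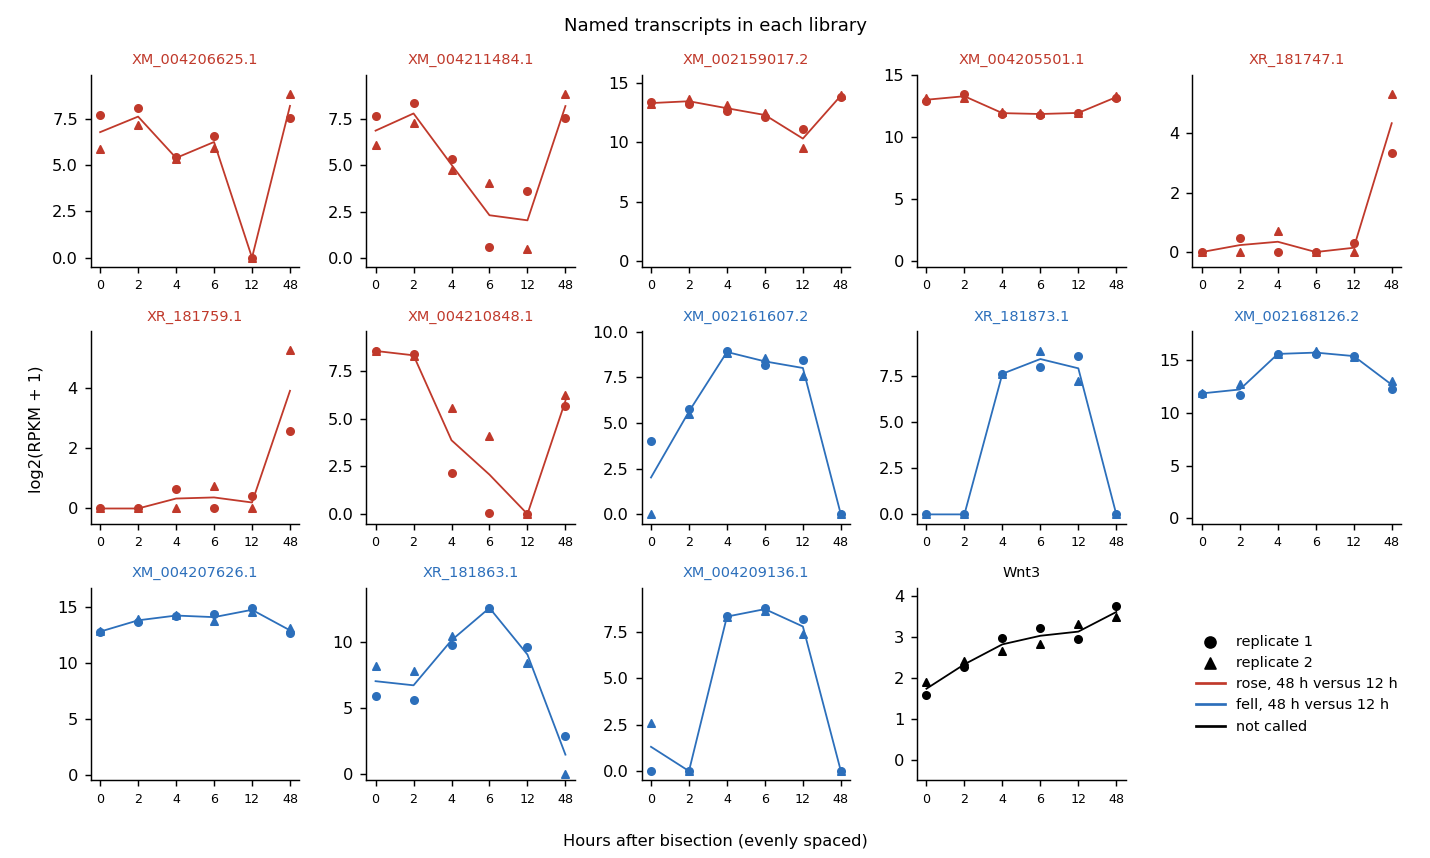
Levels of the 13 transcripts named by identifier and of Wnt3 in each of the 12 libraries, as log2(RPKM + 1) on the y axis of each panel (panels have their own range), by hours after bisection on an evenly spaced x axis. Circles are replicate 1, triangles replicate 2 and lines join the means; red marks rises and blue falls at 48 h versus 12 h, and most blue panels are high from 4 to 12 h while several red ones dip towards 12 h.

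The transcripts that moved late had a history that could be read from the libraries of 0, 4 and 6 h, which enter the late comparison through the common estimate of the spread and not through its means. Of the 667 that fell at 48 h, 222, or 33.3%, had risen at 6 h relative to 0 h, against 5.34% of all transcripts tested, and 32, or 4.8%, had fallen, against 8.92% of all. Of the 350 that rose at 48 h, 127, or 36.3%, had fallen at 6 h relative to 0 h, and 8, or 2.29%, had risen. The same was seen at 4 h against 0 h: 32.1% of the falls had risen and 4.8% had fallen, 28.9% of the rises had fallen and 2.29% had risen, against 4.55% of all transcripts that rose and 7.41% that fell. The median log2 fold change at 6 h against 0 h was −0.72 for transcripts that rose at 48 h and 0.47 for those that fell, against −0.30 for all transcripts tested.

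These early contrasts share no library with 48 h against 12 h, but all come from 1 fit and so share its estimate of each transcript's spread. A transcript with a small spread is called more easily in both, in either direction. The early medians also depend on scaling: after median-ratio scaling the median of all transcripts at 6 h against 0 h moved to −0.01, with 1097 rises and 452 falls in place of 762 and 1274. The late rises then had a median of −0.34 and the late falls one of 0.78. On that scale 20.4% of the late rises had fallen at 6 h, against 3.16% of all, and 39.0% of the late falls had risen, against 7.68% of all. After quantile normalization these shares were 23.9% against 4.91% and 40.8% against 6.99%. Leaving out 0 h replicate 2 gave 84 late rises that had fallen at 6 h, leaving out 6 h replicate 1 or 2 gave 80 or 75, leaving out 12 h replicate 2 gave 81 and leaving out 48 h replicate 1 gave 198, and the share was above that of all transcripts in each of these fits.

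**Figure D3:**
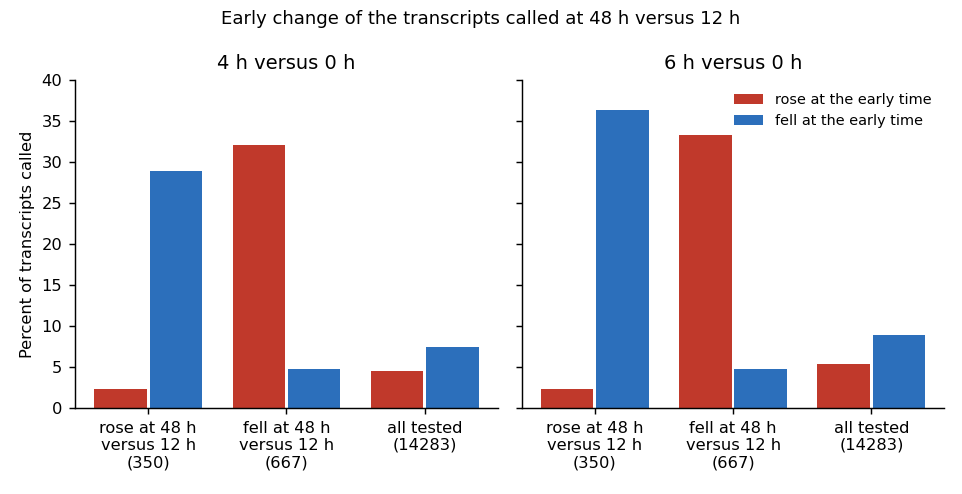
Percent of transcripts that rose (red) or fell (blue) at 4 h versus 0 h (left) and at 6 h versus 0 h (right), for the 350 that rose at 48 h versus 12 h, the 667 that fell and all 14283 tested. Late falls hold the tall red bars, 32.1% and 33.3%, and late rises the tall blue bars, 28.9% and 36.3%.

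The levels of these groups are given as a description, since the calls at 6 h against 0 h and at 48 h against 12 h chose their members and so fixed the direction of both steps. Over 0, 2, 4, 6, 12 and 48 h, the 222 late falls with an early rise had median levels of 45.2, 49.2, 162, 172, 158 and 36.9 RPKM. The 127 late rises with an early fall had medians of 68.7, 61.8, 27.3, 22.5, 23.7 and 67.1 RPKM. Larger groups had no early call: 413 of the falls, whose medians over the same 6 times were 24.3, 20.9, 26.0, 26.2, 29.1 and 7.52 RPKM, and 215 of the rises, with 14.5, 16.5, 13.8, 12.2, 9.92 and 34.9 RPKM. The median of these rises was lower at 12 h than at any earlier time, and over all transcripts tested the medians were 20.6, 18.7, 16.7, 16.6, 16.5 and 15.5 RPKM. Among the 32 falls with an early fall they were 36.7, 22.7, 14.4, 12.9, 18.8 and 5.81 RPKM.

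**Figure D4:**
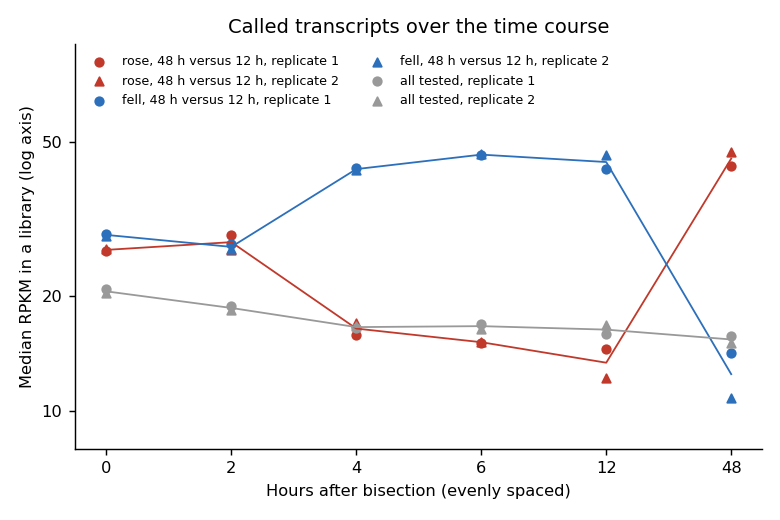
Median RPKM (log axis) in each library, by hours after bisection on an evenly spaced x axis, over the 350 transcripts that rose at 48 h versus 12 h (red), the 667 that fell (blue) and all 14283 tested (grey); circles are replicate 1, triangles replicate 2 and lines join the means. Late falls sit at 42.3 to 46.7 RPKM from 4 to 12 h, above their 0 h level of 28.9 and 28.6, and late rises at 12.2 to 17.0 RPKM.

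The highest and lowest times of a transcript's mean place the late step in the whole course. Among the rises the mean peaked at 0, 2 and 48 h in 21.7%, 9.71% and 66.9% of transcripts; over all transcripts tested these shares were 38.6%, 15.7% and 16.7%. The lowest point of the rises was 12 h in 48.0% and 6 h in 25.7%, against 19.9% and 15.4% over all transcripts. Of the falls, the highest mean was found at 0, 4, 6 and 12 h in 19.3%, 15.4%, 25.2% and 34.0%, against 38.6%, 7.11%, 10.5% and 11.3% over all transcripts, and 77.2% had their lowest mean at 48 h, against 32.5% of all transcripts. The 48 h and 12 h values chose both groups. No rise can be lowest at 48 h and no fall can be highest there, which raises the shares at the other times. All of these shares are therefore a description.

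Summed over transcripts, the falls accounted for 5.55% and 5.50% of all RPKM in the 48 h libraries, against 20.6% and 19.2% in the 12 h libraries. The rises accounted for 9.48% and 10.9% in the 48 h libraries, against 2.95% and 2.89% in the 12 h libraries. These shares follow from how the groups were chosen. The earlier libraries entered that choice through the filter and the common estimate of the spread, and not through the means compared. The falls held 6.94% to 8.92% in the 4 libraries of 0 h and 2 h. In the 4 libraries of 4 h and 6 h they held 19.3% to 21.7%. The rises held 6.66% to 8.08% in the first 4 and 3.06% to 3.66% in the next 4. In both groups these ranges do not overlap, and the step lay between 2 h and 4 h. Abundant transcripts weigh most in such sums: among the falls, XM_002168126.2 alone held a mean of 0.368% at 2 h and 3.28% at 4 h.

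**Figure D5:**
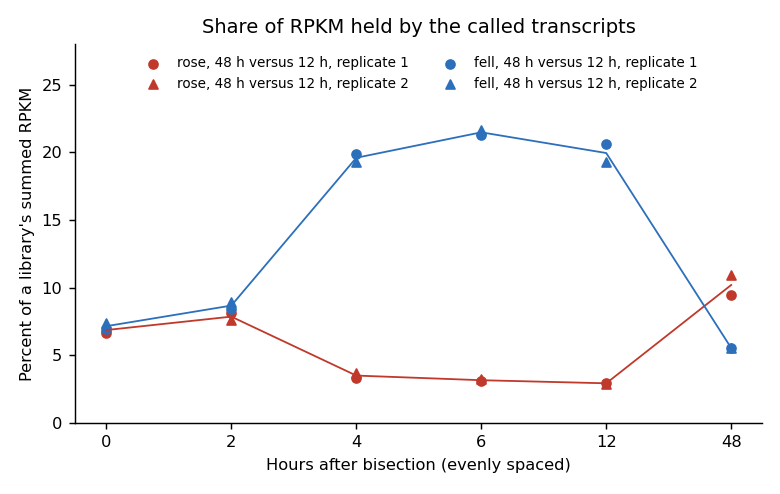
Percent of a library's summed RPKM held by the 350 transcripts that rose at 48 h versus 12 h (red) and the 667 that fell (blue), by hours after bisection on an evenly spaced x axis; circles are replicate 1, triangles replicate 2 and lines join the means. The falls hold 19.2% to 21.7% in the 6 libraries from 4 to 12 h and 5.50% to 8.92% in the others.

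Wnt3, the secreted Wnt ligand expressed by the Hydra head organizer, stood at 12.4 and 10.1 RPKM in the 48 h libraries, against 6.71 and 8.93 RPKM in the 12 h libraries. Both 48 h libraries were above both 12 h libraries, as was the case for 19.7% of all transcripts tested. For Wnt3 the gap between the nearest libraries was 0.16 on the log2 scale. Its log2 fold change of 0.48 (SE 0.27) missed the threshold, at an unadjusted limma p of 0.109 and an adjusted p of 0.296, and the adjusted p ranged from 0.229 to 0.677 over 22 alternatives. An exact two-sided permutation test of 2 against 2 libraries gave p = 0.333, the smallest it can give. Side by side, and with the 0 h libraries shared, the log2 fold change against 0 h was 1.87 at 48 h (adjusted p = 0.00141), where 5.29% of transcripts rose and 17.1% fell, and 1.39 at 12 h (0.00579), where 5.51% rose and 12.9% fell.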

How the data were processed

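Strand-specific poly(A) libraries were read as 50 bp single ends, per the labels' protocols. Bowtie 0.12.8 is named in the submitters' processing notes; what it was aligned to, how reads were assigned and any filter have no source here. The authors deposited 1 table of RPKM for 12 libraries. RPKM values are not counts, so log2(RPKM + 1) was analysed with limma 3.58.1 in R 4.3.3: a mean per time over all 12 libraries, a prior variance following mean expression, 6 residual degrees of freedom, two-sided tests and Benjamini-Hochberg adjustment over 14283 transcripts. Values of groups are means ± SD of 2 pools; no source says that pools were collected on separate days, so p-values measure only the spread between these samples.

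The members, lists and tests were chosen with earlier results of these data known. Identifiers were named by a rule: the 2 rises and 2 falls with the largest log2 fold change, the highest mean over the 4 libraries compared, the largest change among non-coding RNAs, and the widest gap between the libraries of the 2 times, plus Wnt3. Alternatives were a pseudocount of 0.1 or of 5, dropping the filter or raising it to 5 RPKM, median-ratio scaling, quantile normalization, no variance trend, weights per library, the 4 libraries compared alone, a replicate block and leaving out each library. Where a time keeps 1 library, it is assumed to vary like the others. No source used here says how reads shared by closely related transcripts were assigned, so the values of such transcripts are uncertain.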

Additional observations from a re-analysis of the deposited data

How the results depend on the processing

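The counts reported were recomputed 128 times under other settings, and 25 of these differed from the reported one by more than 1.5 times. The fit of the 4 libraries compared gave 0 rises and 0 falls, with 1958 transcripts at an unadjusted p below 0.05, and all 13 calls named by identifier were lost in it. Weights per library gave 54 rises and 175 falls, of which 25 and 100 had moved the opposite way at 6 h against 0 h and 23 and 101 at 4 h against 0 h. With median-ratio scaling, 83 late rises had fallen at 6 h and 60 at 4 h, and with a pseudocount of 5, 66 had fallen at 4 h. Leaving out 1 library gave 221 to 750 rises and 415 to 1590 falls. It gave 53 to 162 late rises with a fall at 4 h and 75 to 198 with a fall at 6 h, and 146 to 279 late falls with a rise at 4 h and 155 to 296 with a rise at 6 h. In the 21 alternatives other than the fit of 4 libraries, 49 rises and 162 falls were called every time, and with weights per library also left aside these were 93 and 237. No log2 fold change of Wnt3 or of a transcript named by identifier reversed its direction. Most alternatives leave the means of 48 h and 12 h unchanged, so this says little, and counts have no direction to reverse. The log2 fold change of Wnt3 ranged from 0.30 to 0.66 and passed in none of 22 alternatives. Same-numbered libraries gave no clear sign of a pairing. Their deviations correlated above 0.1 in 1 of 15 pairs of times, with 0.23 as the highest, and at −0.03 between 48 h and 12 h. With 2 libraries per time, this cannot exclude a pairing. The replicate block gave 317 rises and 606 falls, and of the calls named none was lost. Depth is unknown, so no detection limit can be given for values near 0.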
